A study of Mus musculus with 6 samples.

Results

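The imprinted fetal growth genes described here are *H19*, *Igf2*, *Dlk1*, *Meg3*, *Rian*, *Peg3*, *Plagl1*, *Cdkn1c*, *Grb10* and *Igf2r*. They were chosen by symbol, and all 10 were found among the 59485 genes of the deposited table, with 1 row each. RNA of sciatic nerves at postnatal day 4 was sequenced from 3 control animals, labelled wild-type, and 3 mutant animals, labelled Ht-PA-Cre; Adar1fl/fl;R26R. In the mutants, a promoter of human tissue plasminogen drives Cre, which deletes floxed alleles of *Adar*, the gene of the RNA editing enzyme ADAR1, in neural crest cells, and R26R is a YFP tracer of these cells. Cells of the nerve outside the neural crest lineage keep the gene, and a whole nerve was sequenced with all its cell types, in which fewer cells of a type and less RNA per cell cannot be told apart.

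Imprinted genes are expressed mainly from the allele of 1 parent. Many act on growth before and around birth, and paternally expressed genes such as *Igf2* often promote growth, whereas maternally expressed genes such as *Cdkn1c*, *Grb10* and *Igf2r* often restrain it. Most are strongly expressed in fetal tissues and decline after birth. The allele of origin was not measured in these libraries.

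Values are reads on a gene divided by a size factor of the library (normalized reads), and 50938349 to 78250094 reads lay on genes in a library. Changes are log2 fold changes of value + 1, mutant minus control, with their standard error (SE). The adjusted p comes from limma's moderated test by the Benjamini-Hochberg method over the 25802 genes tested. The threshold combines the limits of the study, a change of 2-fold or more with a p, before adjustment, that does not exceed 0.05. *Adar* itself had 1602, 2066 and 1133 normalized reads in control replicates 1-3 and 11768, 9311 and 9773 in mutant replicates 1-3, against the deletion in the labels. The table has 1 value per gene, so reads of deleted exons cannot be told from the others, and the groups are called control-labelled and mutant-labelled libraries below. Female libraries were 2 of 3 among the controls and 1 of 3 among the mutants. Summed over 8 Schwann cell markers, the main neural crest derivative of the nerve, values were 1131684 to 1499315 in control-labelled and 52410 to 207418 in mutant-labelled libraries.

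The non-coding members and *Igf2* are also hosts of miRNAs. The mature pairs of miR-675, miR-483 and miR-770 are shown, with the seed (bases 2 to 8) in capitals, to identify what *H19*, *Igf2* and *Meg3* carry, and the sequences of miR-1906 in *Meg3* and of miR-341, miR-1188 and miR-370 in *Rian* are not shown. RefSeq (GRCm38.p6) places 2 mature miRNAs in *H19*, 2 in *Igf2*, 3 in *Meg3* and 6 in *Rian*, and none in the other 6 members. Those of *H19* and *Meg3* lie within an exon, while those of *Igf2* and *Rian* do not. No seed was shared among the 13 miRNAs of the members, and the mature miRNAs were not measured by these libraries, which hold the poly-A fraction.
miR-675-5p, in *H19*: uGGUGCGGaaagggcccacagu
miR-675-3p, in *H19*: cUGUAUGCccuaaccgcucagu
miR-483-5p, in *Igf2*: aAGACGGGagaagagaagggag
miR-483-3p, in *Igf2*: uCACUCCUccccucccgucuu
miR-770-5p, in *Meg3*: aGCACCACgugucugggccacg
miR-770-3p, in *Meg3*: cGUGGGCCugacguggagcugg
The miR-675 pair lies at chr7:142577078-142577133 and the miR-483 pair at chr7:142654932-142654989, both on the minus strand, and the miR-770 pair lies at chr12:109563710-109563765 on the plus strand.

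Of the 10 genes, *Cdkn1c* alone passed the threshold, and it was lower in the mutant-labelled libraries. Of all tested genes, 24.2% passed it in either direction and 10.4% in the lower direction, so 1 of 10 is not above that background. At an adjusted p at or under 0.05 without a limit on size, 3 of 10 members were called (*H19*, *Dlk1* and *Cdkn1c*), where 35.0% of all tested genes were called in either direction. That count depends on the fit. After scaling to the same total, 8 of 10 were called, 7 of them higher. The count was 6 without control replicate 1, 5 with DESeq2 and 2 without a trend in the moderated variance. The share of 35.0% belongs to the main fit, so these other counts have no matching background here. Scaling to the same total moved tested genes upward in general, with a median change (log2) of 0.20, so the 8 of 10 is not particular to the members. The values of the groups did not overlap for 5 of 10 members, 4 of them higher and 1 lower, against 49.2% of all tested genes, 25.9% higher and 23.3% lower. The median log2 fold change of the 10 members was 0.30, and that of all tested genes was 0.03.

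**Figure D1:**
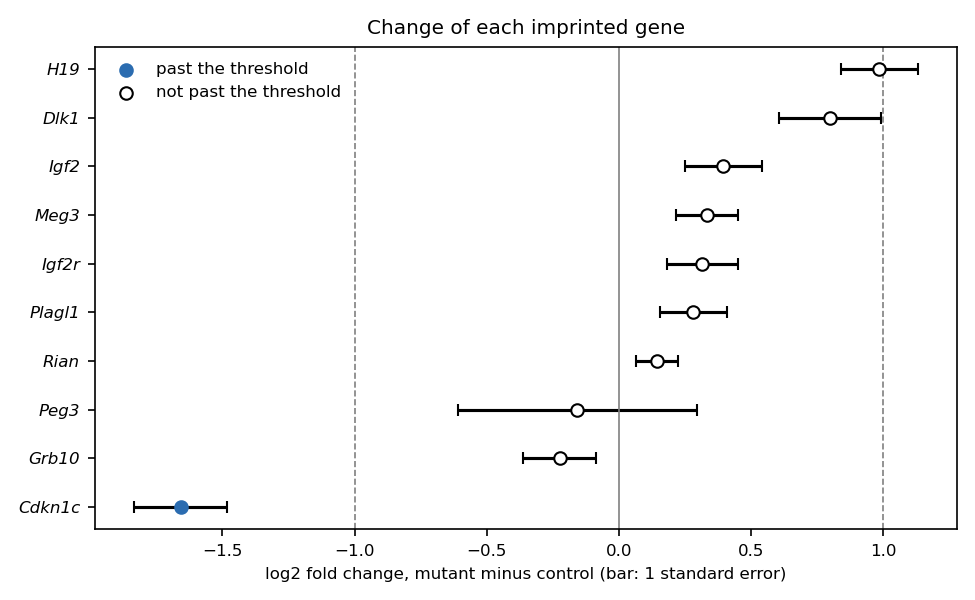
Log2 fold change of each of the 10 imprinted genes (horizontal axis, mutant minus control), with bars of 1 SE and dashed lines at a 2-fold change. *Cdkn1c* at -1.66 lies beyond the lower line, *H19* at 0.99 lies just inside the upper line, and the other 8 genes lie between -0.22 and 0.80.

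*Cdkn1c* (GSMG0036912, chr7:143458339-143461050, minus strand, protein coding) encodes an inhibitor of cyclin-dependent kinases that is expressed from the maternal allele. It had 26910, 29801 and 22996 normalized reads in control replicates 1-3 and 11020, 7771 and 6847 in mutant replicates 1-3. Every mutant-labelled library lay below every control-labelled library, with a mean of 8546 ± 2192 against 26569 ± 3415 (SD, n = 3 each). The mutant mean was 0.322 of the control mean, and the log2 fold change was -1.66 (SE 0.18, limma adjusted p = 0.000231). It stayed past the threshold in each of the 12 other settings and without each library in turn, with log2 fold changes between -1.86 and -1.49. A row on the opposite strand without a symbol (GSMG0068959) spans the whole gene, had 5.11 to 5.97% of the value of *Cdkn1c* in control-labelled and 3.82 to 4.64% in mutant-labelled libraries, and fell by 2.07 on the log2 scale (limma adjusted p = 7.91e-05). Whether that row counts reads of *Cdkn1c* itself was not tested. Among the 7 other cyclin-dependent kinase inhibitors, *Cdkn2b* rose by 1.33 and *Cdkn2c* changed by -1.08. *Cdkn1b* and *Cdkn1a*, of the same family as *Cdkn1c*, had log2 fold changes of -0.93 (limma adjusted p = 0.000436, under 2-fold) and 0.01 (SE 0.11). None of 4 paralogs of the members (*Plag1*, *Plagl2*, *Dlk2* and *M6pr*) and none of 12 proliferation genes passed the threshold, with median log2 fold changes of 0.41 and 0.03. Of the proliferation genes, *Mcm5* (0.61, limma adjusted p = 0.00882), *Pcna* (0.46, limma adjusted p = 0.0195) and *Mcm2* (0.46, limma adjusted p = 0.0402), which act in DNA replication, were higher under 2-fold. These are 3 of 12 at an adjusted p at or under 0.05, where 35.0% of all tested genes were called in either direction. The *Mcm2* groups overlapped. *Plag1*, a relative of *Plagl1*, was higher by 0.73 on the log2 scale (limma adjusted p = 0.0364).

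*H19* (GSMG0036893, chr7:142575530-142578146, minus strand, long non-coding RNA) is transcribed from the maternal allele. It had 383769, 311074 and 277006 normalized reads in control replicates 1-3 and 580289, 692386 and 638802 in mutant replicates 1-3. The groups did not overlap, and the mutant-labelled mean was 1.97 times the control-labelled mean (637159 ± 56067 against 323949 ± 54534, SD, n = 3 each). The log2 fold change of 0.99 (SE 0.15, limma adjusted p = 0.00123) is just under the 2-fold limit, which *H19* passed without control replicate 1, without mutant replicate 1 and after scaling to the same total. A row without a symbol on the opposite strand (GSMG0065131) covers *H19*, had 1.81 to 2.18% of its value, and had a log2 fold change of 0.96 (limma adjusted p = 0.000301). Whether that row counts reads of *H19* itself was not tested.

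*Igf2* (GSMG0036894, chr7:142650768-142666816, minus strand, protein coding), the paternally expressed neighbor of *H19*, encodes a growth factor that signals through the IGF1 and insulin receptors. It had 30686, 26307 and 21070 normalized reads in control replicates 1-3 and 36445, 35301 and 30056 in mutant replicates 1-3. Mutant replicate 3 lay below control replicate 1, so the groups overlapped. The log2 fold change was 0.40 (SE 0.15, limma adjusted p = 0.0649), and the adjusted p was between 0.021 and 0.197 over 17 other fits, at or under 0.05 in 4 of them. *Igf2os*, on the opposite strand within the *Igf2* locus, had 48.9, 59.5 and 49.4 against 205.9, 285.6 and 276 normalized reads, which is 0.159 to 0.235% of the *Igf2* value in control-labelled and 0.565 to 0.918% in mutant-labelled libraries (log2 fold change 2.25, limma adjusted p = 0.000506).

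Within a library, the ratio of *H19* to *Igf2* does not depend on the scaling between libraries. It was 12.5, 11.8 and 13.1 in control replicates 1-3 and 15.9, 19.6 and 21.3 in mutant replicates 1-3. The groups did not overlap, with a log2 difference of 0.59 and an exact two-sided permutation p of 0.1, the smallest that 3 against 3 libraries allow. The ratio of *Igf2* to *Igf2r* was 5.76, 6.09 and 5.55 against 7.03, 5.94 and 5.5, with overlapping groups (exact permutation p = 0.7).

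**Figure D2:**
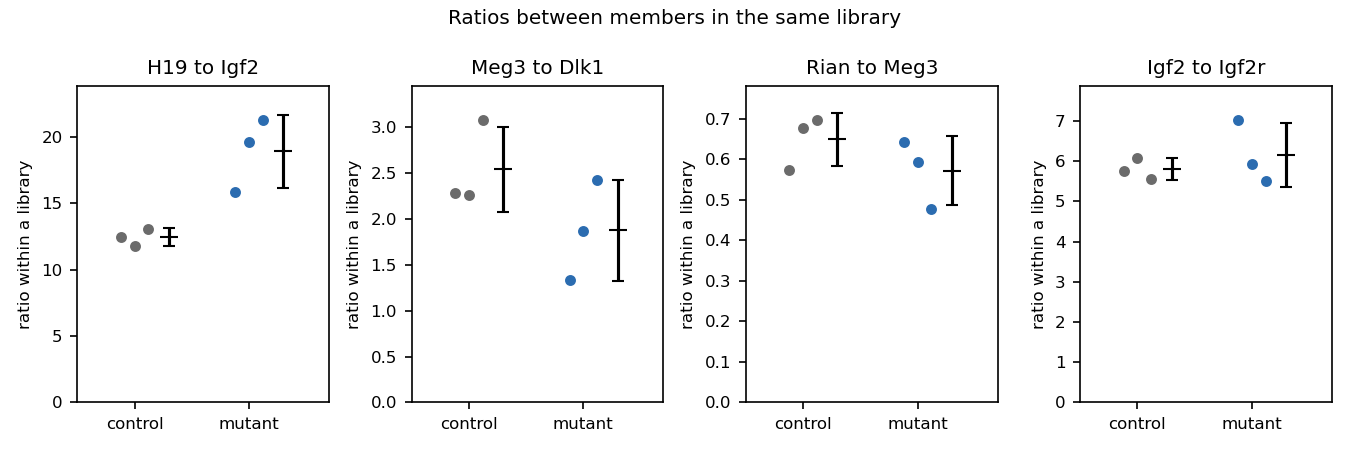
Ratio of normalized reads of 2 members in the same library (vertical axes, from 0), for 3 control (gray) and 3 mutant (blue) libraries, with the mean ± SD beside them. The *H19* to *Igf2* ratios of the mutants (15.9 to 21.3) lie above those of the controls (11.8 to 13.1), and the other 3 ratios overlap.

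*Dlk1* (GSMG0008529, chr12:109452823-109463336, plus strand) encodes a transmembrane protein with EGF-like repeats, expressed from the paternal allele, that restrains adipocyte differentiation. It had 20650, 19319 and 13018 normalized reads in control replicates 1-3 and 37101, 28315 and 26076 in mutant replicates 1-3. All mutant-labelled values were above all control-labelled values, and the means were 30498 ± 5828 and 17662 ± 4077 (SD, n = 3 each). The log2 fold change was 0.80 (SE 0.19, limma adjusted p = 0.0131), and the adjusted p was at or under 0.05 in 16 of 17 other fits, the exception being 0.068 without a trend in the moderated variance.

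*Meg3* and *Rian*, long non-coding RNAs expressed from the maternal allele of the same domain, had smaller differences. *Meg3* (GSMG0065028, chr12:109540996-109571729, plus strand) had 47139, 43635 and 40081 against 49204, 53029 and 63349 normalized reads, a log2 fold change of 0.34 (SE 0.12, limma adjusted p = 0.0549). *Rian* (GSMG0008537, chr12:109603945-109661716, plus strand) had 27019, 29481 and 27918 against 31637, 31423 and 30249, a log2 fold change of 0.15 (SE 0.08, limma adjusted p = 0.195). In both genes the lowest mutant-labelled value exceeded the highest control-labelled value, although neither passed an adjusted p of 0.05. Over 17 other fits, *Meg3* was at or under it in 4 and *Rian* in 1. The ratio of *Meg3* to *Dlk1* was 2.28, 2.26 and 3.08 against 1.33, 1.87 and 2.43, and that of *Rian* to *Meg3* was 0.573, 0.676 and 0.697 against 0.643, 0.593 and 0.477. Both overlapped between groups (exact permutation p = 0.3 for each). *Mirg*, a miRNA host at the end of this cluster and no member, had 1812, 1918 and 1807 against 2979, 3026 and 2816 (log2 fold change 0.67, limma adjusted p = 0.000931). The row at the position of *Rtl1*, named after its values were seen because the table gives it no symbol, rose by 1.73 (GSMG0009310, 466.4, 253.2 and 404.2 against 1116, 831 and 1877, limma adjusted p = 0.00414). Of the other 3 listed imprinted genes found by position, none passed the threshold, with log2 fold changes of -0.37 for *Magel2*, -1.21 for *Zfp264* and 0.49 for *Klf14*.

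*Plagl1* (GSMG0002722, chr10:13060504-13131692, plus strand) encodes a zinc finger transcription factor, and *Peg3* (GSMG0035480, chr7:6705960-6730422, minus strand) another zinc finger protein, both paternally expressed. *Plagl1* had 32894, 24055 and 24257 normalized reads in control replicates 1-3 and 31468, 32871 and 33371 in mutant replicates 1-3 (log2 fold change 0.28, SE 0.13, limma adjusted p = 0.123). The mutants were close to control replicate 1, with a group SD of 987 against 5046 in the controls. *Peg3* had 498.6, 244.7 and 157.1 against 171.7, 205.5 and 391.7, with an SD of 177.3 around a control mean of 300.2, and its log2 fold change of -0.16 (SE 0.45, limma adjusted p = 0.814) had the opposite sign without control replicate 1 (0.29), without mutant replicate 1 (0.08) and after scaling to the same total (0.01).

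*Igf2r* and *Grb10* restrain signalling of IGFs. *Igf2r* (GSMG0017119, chr17:12682406-12769706, minus strand) encodes the receptor that clears IGF2, and had 5327, 4321 and 3794 against 5183, 5941 and 5470 normalized reads (log2 fold change 0.32, SE 0.13, limma adjusted p = 0.0995). *Grb10* (GSMG0006347, chr11:11930499-12037953, minus strand) encodes an adaptor that binds insulin and IGF1 receptors, and had 10023, 8734 and 7326 against 6639, 7207 and 8407 (log2 fold change -0.22, SE 0.14, limma adjusted p = 0.239). The groups overlapped for both genes. Within *Grb10*, 3 rows without a symbol lie on the same strand, and counting could split their reads with *Grb10*.

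**Figure D3:**
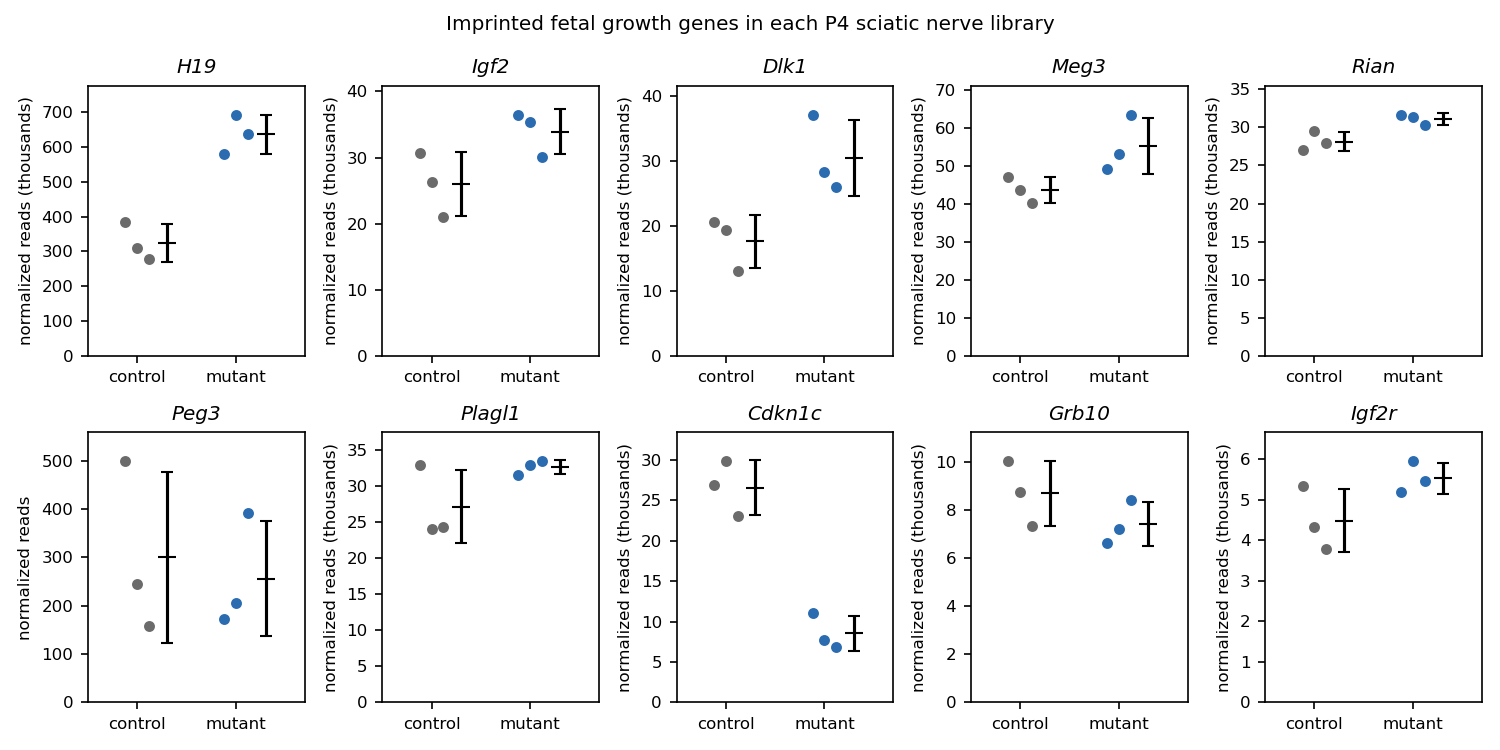
Normalized reads of each imprinted gene (vertical axes from 0, in units of 1000 reads except *Peg3*) in 3 control (gray) and 3 mutant (blue) libraries, left to right replicates 1 to 3, with the mean ± SD at the right of each group. The groups are separate for *H19*, *Dlk1*, *Meg3*, *Rian* and *Cdkn1c*, and of these *Cdkn1c* alone is lower in the mutants.

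Control replicate 1 was the highest control for 8 of 10 members, as it was for 36.5% of all tested genes, and control replicate 3 the lowest for 8 of 10, as it was for 31.4%. Of the mutant-labelled libraries, replicates 1, 2 and 3 were the highest mutant for 4, 2 and 4 members and the lowest for 6, 0 and 4, where they were the lowest for 30.9, 36.7 and 32.4% of all tested genes. Control replicate 1 was also the highest control for 8 of 8 endothelial, 11 of 11 muscle, 6 of 6 adipocyte, 5 of 6 pericyte, 8 of 10 fibroblast, 6 of 8 erythroid and 5 of 8 macrophage markers, but for 2 of 8 Schwann cell and 1 of 8 perineurial markers and 0 of 12 proliferation genes. Skeletal muscle is a tissue in which *H19*, *Igf2* and *Dlk1* are known to be expressed around birth. Of 11 muscle markers tested, 10 were higher past the threshold, 7 of them at a limma adjusted p at or under 0.05. Of all tested genes, 13.9% were higher past the threshold and 10.4% lower, which is the background for each marker list. Muscle marker sums were 7273 to 36786 in control-labelled and 47608 to 345624 in mutant-labelled libraries. Among the mutants, the sum was highest in replicate 3 and lowest in replicate 2. Mutant replicate 3 was the highest mutant for *Meg3*, *Peg3*, *Plagl1* and *Grb10* and the lowest for *Igf2*, *Dlk1*, *Rian* and *Cdkn1c*. Of 10 fibroblast markers, 2 were higher (*Dpp4* and *Twist2*) and 3 lower (the collagens *Col1a1*, *Col1a2* and *Col3a1*), with a median log2 fold change of 0.12. Their sums of 2461861 to 2856340 against 984546 to 1462357 are 97.3 to 99.3% collagen reads, and the other 7 markers summed to 17808 to 29061 in control-labelled and 21117 to 26441 in mutant-labelled libraries. None of 8 endothelial, 6 pericyte or 6 adipocyte markers passed the threshold. All 8 endothelial markers had a positive log2 fold change, with a median of 0.49 and 2 of them at an adjusted p at or under 0.05 by limma, and their sums were 15969 to 24391 against 22454 to 30856. Of the erythroid markers, 6 of 7 were lower, and adipocyte sums ranged from 5389 to 12373 against 3199 to 26536. Of the other lists, 5 of 8 Schwann cell and 3 of 8 macrophage markers were lower, and 1 of 8 perineurial markers was higher and 1 lower. The part of these cell types in the values of the imprinted genes was not tested.

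**Figure D4:**
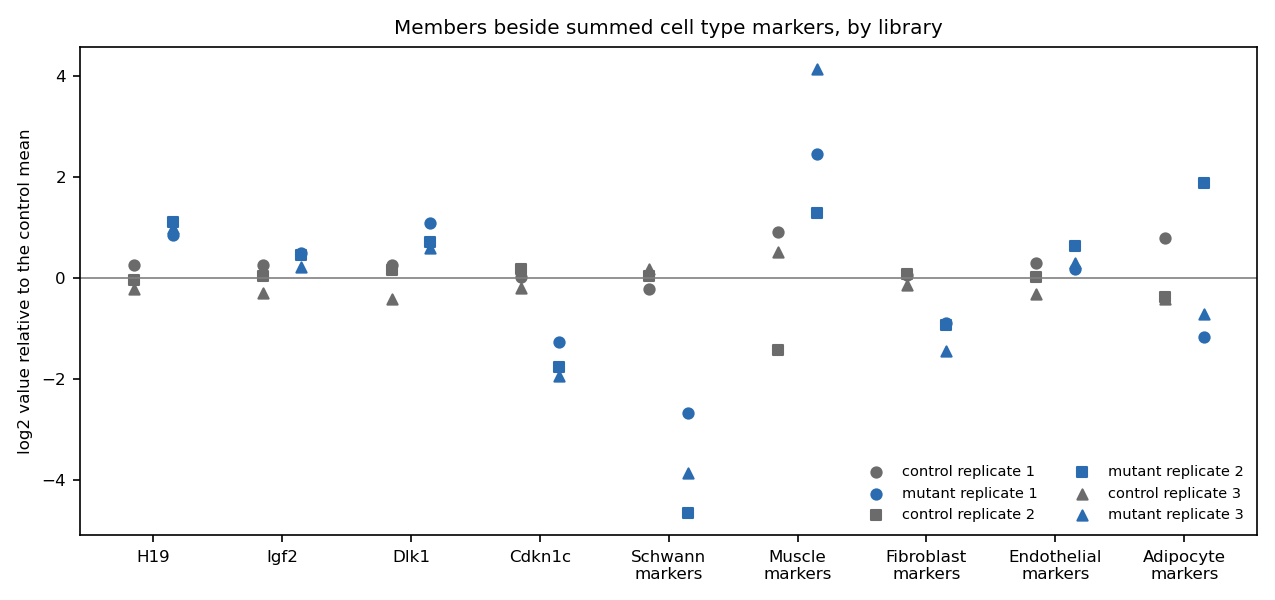
Log2 value of *H19*, *Igf2*, *Dlk1* and *Cdkn1c* and of summed cell type markers, relative to the control mean (vertical axis), for each control (gray) and mutant (blue) library, with a symbol per replicate number. Muscle marker sums are above all controls in the 3 mutants, and Schwann cell sums and the fibroblast sums, which are mostly collagen reads, are below them.

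Other genes known to be imprinted in at least some tissues were compared as 2 lists by the allele expressed. Of 45 tested, 6 passed the threshold as higher and 4 as lower (13.9% and 10.4% of all tested genes). Their median log2 fold change was 0.02. Among the paternally expressed genes, *Igf2os*, *Sfmbt2* (1.11, limma adjusted p = 0.00861) and *Dio3* (2.32, limma adjusted p = 0.0653, with overlapping groups) were higher. *Peg13* (-1.61, limma adjusted p = 5.4e-05) and the row shared by *Snrpn* and *Snurf* (-1.28, limma adjusted p = 0.000866) were lower. Among the maternally expressed genes, *Calcr*, *Slc22a2* and *Slc22a18* were higher, with control means of at most 53.5 normalized reads, and *Gatm* (-1.74, limma adjusted p = 2e-05), an enzyme of creatine synthesis, and *Ano1* (-1.02, limma adjusted p = 0.00834) were lower.

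A list of IGF system genes, some of them only related to that system, was set beside *Igf2*, *Igf2r* and *Grb10*. It was chosen with earlier results of these data known, so its counts are a description only. Of 29 tested, 9 passed the threshold as higher and 2 as lower, where 13.9% and 10.4% of all tested genes did, and their median log2 fold change was 0.46 against 0.03 for all tested genes. Of the ligands and receptors, *Igf1* (log2 fold change 0.19), *Igf1r* (0.15) and *Insr* (0.45) did not pass, *Ins1* and *Ins2* were too low to be tested, and *Insrr*, a receptor related to the insulin receptor, rose by 5.16 (6.66, 22.7 and 5.07 against 453.9, 256.6 and 425.3, limma adjusted p = 0.000264). Of 14 binding proteins and their regulators, 5 were higher and 1 lower. *Igfbp3*, which carries IGFs, had 12249, 11139 and 11770 against 74169, 83122 and 84001 normalized reads, a log2 fold change of 2.78 (limma adjusted p = 1.35e-06). *Stc2* (5.44), *Stc1* (2.32) and *Pappa* (4.19), which encode inhibitors of the IGF binding protein protease PAPP-A and that protease, were higher too, as was *Pappa2* (1.69, limma adjusted p = 0.097), and *Igfbp2* changed by -1.26. Inside the cell, *Igf2bp1*, which binds *Igf2* mRNA, rose by 2.31 (limma adjusted p = 9e-05), *Hmga2* by 1.39 and *Irs2* by 1.35, and *Grb14*, a relative of *Grb10*, fell by 1.17.

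**Figure D5:**
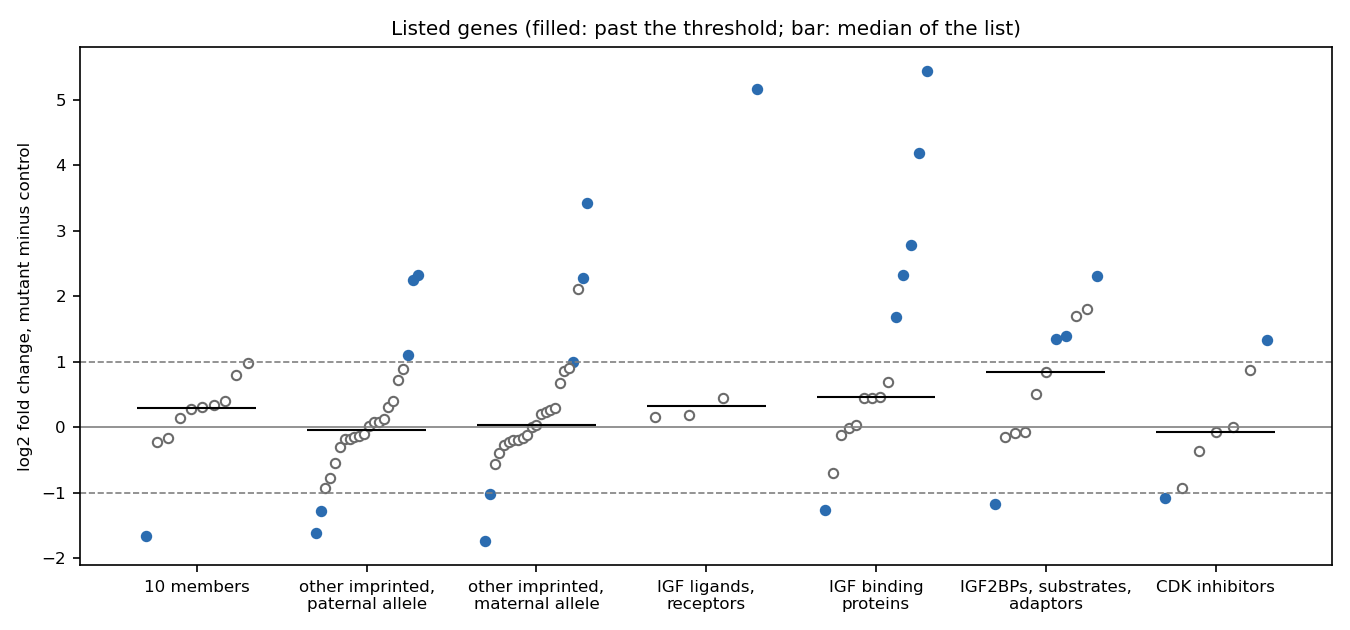
Log2 fold change (vertical axis, mutant minus control) of each tested gene of 7 lists, filled where past the threshold, with the median of a list as a bar and dashed lines at a 2-fold change. The 10 members span -1.66 to 0.99, and *Stc2* (5.44) and *Insrr* (5.16) are the highest points.

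The imprinted domains around the members hold 160 rows of the table, of which 65 were tested, 7 were higher and 5 lower (13.9% and 10.4% of all tested genes). These rows include the 10 members, and without them 7 were higher and 4 lower of 55 tested. *Cdkn1c* and the row that spans it on the opposite strand are both among the 5 lower rows. The domain of *H19*, *Igf2* and *Cdkn1c* on chromosome 7 had 3 higher and 4 lower of 25 tested, and the domain of *Dlk1*, *Meg3* and *Rian* on chromosome 12 had 2 higher and none lower of 10. Close to *Cdkn1c*, *Cars*, a cysteine tRNA ligase, rose by 1.38 (limma adjusted p = 3.8e-05), so neighbors in this domain moved in both directions.

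By the root mean square difference of centred log2 values over the 6 libraries, among 13041 named genes with a mean of at least 100, the profiles nearest to *Cdkn1c* were *Dpysl4* (0.05), *Tecta* (0.071) and *Adamts7* (0.076). Those nearest to *H19* were *Hsph1* (0.061), *Ddx20* (0.073) and *Ice2* (0.078), and those nearest to *Dlk1* were *Mgmt* (0.078), *Emilin2* (0.09) and *Zc2hc1a* (0.112). No member was among the 3 nearest profiles of another member. For *Peg3*, *Zim1*, its neighbor on chromosome 7, came after *Ssh2* and *Cmah*, at 0.218.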

How the data were processed

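The authors made stranded libraries of poly-A RNA, mapped reads to mm10 (STAR 2.4.0 per the submitters' processing notes), counted reads on constitutive gene regions and deposited a signal per gene and library, counts divided by a DESeq size factor. The strand setting of the counting is not given in the sources used here. Dividing by the value of 1 read (0.727 to 1.27) gave whole reads for 100% of values (tolerance 0.01). Genes with a mean of at least 10 in at least 1 genotype were fitted as log2(value + 1) with limma 3.58.1 (eBayes with trend) in R 4.3.3. Genotypes and replicate numbers come from the labels, 1 library per animal. Ratios were compared by exact permutation tests. Alternatives were pseudocounts of 0.1 and 10, other filters, other scalings, edgeR 4.0.16 and DESeq2 1.42.0 on recovered reads, a replicate block and leaving out each library. Named genes are the members, up to 4 genes of each list with the largest change past the threshold, the insulin and IGF ligands and receptors, and *Adar*. Of the 3 nearest profiles found for each member, those of *Cdkn1c*, *H19*, *Dlk1* and *Peg3* are named. *Mirg*, the paralogs of members, *Cdkn1a*, *Cdkn1b*, *Mcm2*, *Mcm5*, *Pcna*, *Cars*, *Sfmbt2*, *Slc22a18*, *Igfbp2*, *Pappa2*, the fibroblast markers and the rows without a symbol were named after their values were seen. The members and lists were chosen with earlier results of these data known. The self-test on simulated data used 200 changed genes.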

Additional observations from a re-analysis of the deposited data

How the results depend on the processing

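Scaling to the same total moved the median change of the genes tested (log2) from 0.03 to 0.20 and the share of calls that were higher from 57.3 to 66.4%. Under it, 2 members passed the threshold (*H19* joined at 1.15), 8 had an adjusted p at or under 0.05, 10 other imprinted genes and 12 domain rows were higher, and *Peg3* had a log2 fold change of 0.01. Over all tested genes, 4261 of 25820 were higher past the threshold under this scaling, against 3580 of 25802 in the main fit. The share of tested genes with an adjusted p at or under 0.05 is given for the main fit only. With a minimum mean of 50, which tests fewer genes, 3 other imprinted genes and 4 domain rows were higher, where 2579 of 18619 tested genes were.

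With each library left out in turn, 1 to 2 members passed the threshold (2 without control replicate 1 and without mutant replicate 1, where *H19* was 1.11 and 1.05). Other imprinted genes numbered 4 to 7 higher and 3 to 4 lower, IGF system genes 8 to 10 higher and 1 to 2 lower (1 without mutant replicate 3), and domain rows 6 to 11 higher (11 without mutant replicate 1) and 4 to 5 lower. Log2 fold changes ranged from 0.88 to 1.11 for *H19* and from -0.54 to 0.29 for *Peg3* (0.29 without control replicate 1, 0.08 without mutant replicate 1). They were 0.25 to 0.52 for *Igf2*, 0.20 to 0.45 for *Igf2r* and -0.34 to -0.12 for *Grb10*, farthest from each other without control replicates 1 and 3, and 0.20 to 0.43 for *Plagl1* (0.43 without control replicate 1). Without control replicate 1, *Igf2*, *Plagl1* and *Igf2r* had limma adjusted p-values of 0.0261, 0.00984 and 0.0228. The mutant minus control difference of the *Igf2* to *Igf2r* log2 ratio ranged from -0.02 to 0.16, the lowest without mutant replicate 1. For *Meg3* to *Dlk1*, that difference was -0.67 without mutant replicate 3 and -0.24 without mutant replicate 1. For *Rian* to *Meg3* it ranged from -0.28 to -0.07, and for *H19* to *Igf2* from 0.50 to 0.71. The causes were not tested.

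Deviations of same-numbered libraries from their group means correlated at -0.0619, -0.0555 and 0.00891. With 3 libraries per group, these values cannot decide whether the numbers pair the animals. A replicate block gave 6149 calls in place of 6251 and 1 member past the threshold. With the block, 4 of 10 members had a limma adjusted p at or under 0.05, among them *Igf2* (0.0353). No depth limit arose for the members other than *Peg3*, which rests on 124 to 449 reads per library.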
